A study of Mus musculus with 12 samples.

Results

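The 37 genes described here are interferon-stimulated genes, a set chosen by name from textbook knowledge of the response to interferon. Earlier results of these data were known when the set was chosen, so it is not independent of them. All 37 were found by Ensembl identifier and symbol among 32199 genes listed for the first set of kidneys and 31719 listed for the second. The kidneys came from male C57BL/6 WT mice, Padi4 knockout mice (PAD4 KO) and Il33 knockout mice (IL-33 KO), all 8 weeks old. All 4 groups, the WT groups included, received contrast-induced acute kidney injury: a kidney was removed, the mice recovered for 3 weeks and went 24 h without water, furosemide (a loop diuretic) was given into the peritoneum, and 20 min later the mice received iodixanol, the contrast medium, by tail vein. The kidney was taken 24 h after iodixanol. The first set held 3 PAD4 KO and 3 WT libraries and the second set 3 libraries labelled IL-33 KO and 3 other WT libraries, so the comparisons share no control library. No group without injury was analysed here, and the sources used here do not say how the knockouts were made or in which cells they act, whether littermates were used, or whether each library is from its own mouse. The p-values therefore measure the spread between these libraries.

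Interferons are cytokines that cells release on sensing nucleic acid or microbial products. Type I and type III interferons act through their receptors and JAK kinases on a complex that holds STAT2 and IRF9 and binds interferon-stimulated response elements (ISRE), whereas interferon gamma acts mainly at gamma-activated sites (GAS). The induced genes encode nucleic acid sensors, antiviral effectors, GTPases that act against pathogens inside cells, and regulators of the response, and in kidney they are known from tubule cells, endothelium and immune cells alike.

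Promoter sequence was taken from RefSeq (GRCm38.p6) as 250 bases before and 50 after each start site, and 27 of the 37 genes had an entry. An ISRE match, here the letters GAAA, any 2 bases and GAAA again, or TTTC, any 2 bases and TTTC on the other strand, was present for 16 of these 27 genes (59.3%), against 3.99% of all 27025 genes with an entry. The letters TTCNNNGAA (GAS, the same on both strands) were present for 11 of 27 (40.7%), against 9.55% of all genes, and matches of both kinds overlapped in 2 promoters. A list of other interferon-stimulated genes, described further on, had 30 genes with an entry. Of these, 16 (53.3%) held ISRE letters and 3 (10.0%) held GAS letters, so the higher GAS share was not seen in that list. The promoters below belong to genes with the smallest p in the comparisons that follow, 6 with an ISRE match and 2 without, each printed 5′ to 3′ on the gene's strand with the ISRE letters in capitals. Bst2 (chr8:71537423-71537722, minus strand) and Oas1a (chr5:120907476-120907775, minus strand) each hold a pair of overlapping matches, which begin 130 and 124 bases before the start site in Bst2 and 20 and 14 bases before it in Oas1a. The bases just after the start were found in a GENCODE vM21 transcript of each gene shown except Bst2. The Bst2 distances therefore rest on the RefSeq start alone. A single match begins 59 bases before the start in Gbp2 (chr3:142620413-142620712, plus strand), 120 bases before it in Rsad2 (chr12:26456403-26456702, minus strand) and 34 bases before it in Igtp (chr11:58199306-58199605, plus strand). In Ifitm3 (chr7:141010695-141010994, minus strand) both matches lie after the start, and Oasl2 (chr5:114896684-114896983, plus strand) and Samhd1 (chr2:157135047-157135346, minus strand) are shown for contrast, with no ISRE match in the window.
Bst2: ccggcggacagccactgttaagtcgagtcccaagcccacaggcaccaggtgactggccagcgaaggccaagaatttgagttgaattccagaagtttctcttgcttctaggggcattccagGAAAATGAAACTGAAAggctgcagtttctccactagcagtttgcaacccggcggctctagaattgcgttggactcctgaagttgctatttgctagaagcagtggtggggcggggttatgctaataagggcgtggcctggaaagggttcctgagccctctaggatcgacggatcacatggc
Oas1a: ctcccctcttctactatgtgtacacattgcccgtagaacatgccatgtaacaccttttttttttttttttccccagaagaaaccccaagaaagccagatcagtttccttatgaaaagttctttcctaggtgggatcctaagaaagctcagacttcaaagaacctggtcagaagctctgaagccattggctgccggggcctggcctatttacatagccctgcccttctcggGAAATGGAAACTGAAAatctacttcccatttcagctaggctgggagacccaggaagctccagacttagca
Gbp2: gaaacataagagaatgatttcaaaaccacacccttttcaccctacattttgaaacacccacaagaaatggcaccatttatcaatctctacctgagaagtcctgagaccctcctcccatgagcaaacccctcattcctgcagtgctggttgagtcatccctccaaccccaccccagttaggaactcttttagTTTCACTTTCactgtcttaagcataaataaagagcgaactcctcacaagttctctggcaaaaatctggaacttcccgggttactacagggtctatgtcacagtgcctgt
Rsad2: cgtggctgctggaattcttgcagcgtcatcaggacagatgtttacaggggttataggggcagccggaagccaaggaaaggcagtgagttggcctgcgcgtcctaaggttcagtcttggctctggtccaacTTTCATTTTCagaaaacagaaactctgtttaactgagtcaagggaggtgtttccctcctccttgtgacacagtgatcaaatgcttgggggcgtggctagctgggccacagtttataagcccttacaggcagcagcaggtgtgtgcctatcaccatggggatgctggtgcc
Igtp: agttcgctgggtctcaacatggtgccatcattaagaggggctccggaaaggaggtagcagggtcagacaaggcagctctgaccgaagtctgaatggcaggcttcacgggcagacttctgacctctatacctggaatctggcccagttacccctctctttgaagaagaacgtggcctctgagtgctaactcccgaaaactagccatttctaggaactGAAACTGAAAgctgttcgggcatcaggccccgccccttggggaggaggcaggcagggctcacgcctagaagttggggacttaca
Ifitm3: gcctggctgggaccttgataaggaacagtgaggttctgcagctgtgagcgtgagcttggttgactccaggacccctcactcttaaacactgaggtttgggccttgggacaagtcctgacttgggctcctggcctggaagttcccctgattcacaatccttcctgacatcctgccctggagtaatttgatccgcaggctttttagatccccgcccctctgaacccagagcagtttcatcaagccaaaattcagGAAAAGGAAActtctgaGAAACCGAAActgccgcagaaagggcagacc
Oasl2: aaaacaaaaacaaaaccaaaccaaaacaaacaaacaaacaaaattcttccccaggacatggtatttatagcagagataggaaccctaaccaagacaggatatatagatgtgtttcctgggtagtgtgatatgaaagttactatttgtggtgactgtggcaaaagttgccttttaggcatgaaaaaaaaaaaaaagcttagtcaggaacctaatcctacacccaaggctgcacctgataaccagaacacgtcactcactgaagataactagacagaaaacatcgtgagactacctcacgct
Samhd1: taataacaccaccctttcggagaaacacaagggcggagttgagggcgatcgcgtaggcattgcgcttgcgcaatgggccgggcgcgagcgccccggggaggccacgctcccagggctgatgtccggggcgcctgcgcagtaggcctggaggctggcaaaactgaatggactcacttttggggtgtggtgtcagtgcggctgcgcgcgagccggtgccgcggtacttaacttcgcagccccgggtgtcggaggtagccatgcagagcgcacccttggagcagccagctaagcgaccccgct

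Levels are FPKM, fragments per kilobase of transcript scaled to the mapped fragments of the library, which is a level per length. FPKM summed to 700601 to 812981 per library in the first set and 385124 to 420279 in the second, with 52.0% to 60.0% and 24.1% to 29.2% of the sum in mitochondrial genes, so levels are not compared across sets. The sequencing depth is unknown from FPKM, and no interval that needs it is given. Padi4 averaged 0.301 ± 0.171 FPKM in PAD4 KO libraries and 1.15 ± 0.490 FPKM in their WT libraries (SD, n = 3 each), with library values of 0.217, 0.497 and 0.187 FPKM in PAD4 KO libraries, against 0.704, 1.06 and 1.67 FPKM in WT libraries. The groups did not overlap and Padi4 fell (-0.71 ± 0.19 (SE), adjusted p = 0.0147 by limma), although not without PAD4 KO replicate 3 (adjusted p = 0.0548) or WT replicate 3 (0.0798). Il33 averaged 0.925 ± 0.274 FPKM in libraries labelled IL-33 KO and 2.16 ± 1.31 FPKM in WT libraries (SD, n = 3 each). Its library values were 1.14, 0.616 and 1.02 FPKM in libraries labelled IL-33 KO, against 1.71, 1.13 and 3.64 FPKM in WT libraries. The groups overlapped, with IL-33 KO replicate 1 just above WT replicate 2. The change missed the threshold (-0.65 ± 0.28 (SE), adjusted p = 0.0989 by limma), so the libraries labelled IL-33 KO are called by their label. Il33 was also lower in PAD4 KO libraries (-1.15 ± 0.23 (SE), adjusted p = 0.00209). All 10 kidney markers examined, among them Umod, Lrp2 and Aqp2, were above 0 in all 12 libraries.

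Many interferon-stimulated genes were lower in PAD4 KO kidneys than in WT kidneys of the same set. All 37 were at a level that could be tested, and limma called 14 lower and 0 higher at an adjusted p under 0.05, against 8.79% of all 13986 genes called lower and 8.89% called higher. At an unadjusted p under 0.05, 21 were lower and 0 higher. The median change of the 37 genes in log2(FPKM + 1), PAD4 KO minus WT, was -0.63, beside 0.02 for all genes tested. The change was below 0 for 34 genes and above 0 for 3 (91.9% and 8.11%, against 48.4% and 51.6% of all genes), and the PAD4 KO and WT libraries did not overlap for 16 of them (15.8% of all genes lay below WT in this way). In bulk tissue, fewer cells of a type and less RNA per cell cannot be told apart. WT replicate 2 was the highest of the 6 libraries for 29 genes, PAD4 KO replicate 1 the lowest for 24, and WT replicate 1 the lowest WT library for all 37. The count of genes called lower was 3 without WT replicate 3, 5 without WT replicate 2, 7 and 9 without PAD4 KO replicates 1 and 3, and 18 without PAD4 KO replicate 2. Only Gbp2, Oas1a and Zbp1 kept their call in each of the 6 fits.

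In kidneys labelled IL-33 KO many of these genes were higher than in WT. Of the 35 at a testable level, 16 were called higher and 0 lower, against 22.2% of all 14513 genes called higher and 16.8% called lower. At an unadjusted p under 0.05, 19 were higher and 1 lower. The median change of the 35 genes was 0.73, beside 0.04 for all genes. The change was above 0 for 33 genes and below 0 for 2 (94.3% and 5.71%, against 53.9% and 46.1% of all genes), and the groups did not overlap for 14 higher genes (30.2% of all genes) and for Trim25, which lay lower (24.3% of all genes). The WT libraries were unlike each other: replicate 3 was the highest WT library for 35 of 37 genes, and its mean log2(FPKM + 1) over the 37 genes was 2.39, against 1.63 and 1.53 in WT replicates 1 and 2 and 2.65, 2.33 and 2.54 in the libraries labelled IL-33 KO. The count called higher was 28 without WT replicate 3, 3, 10 and 4 without IL-33 KO replicates 1, 2 and 3, and 6 and 5 without WT replicates 1 and 2. Bst2, Igtp, Rsad2 and Zbp1 kept their call in each such fit that kept the gene, and Zbp1 fell below the level tested in 2 of the 6.

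**Figure D1:**
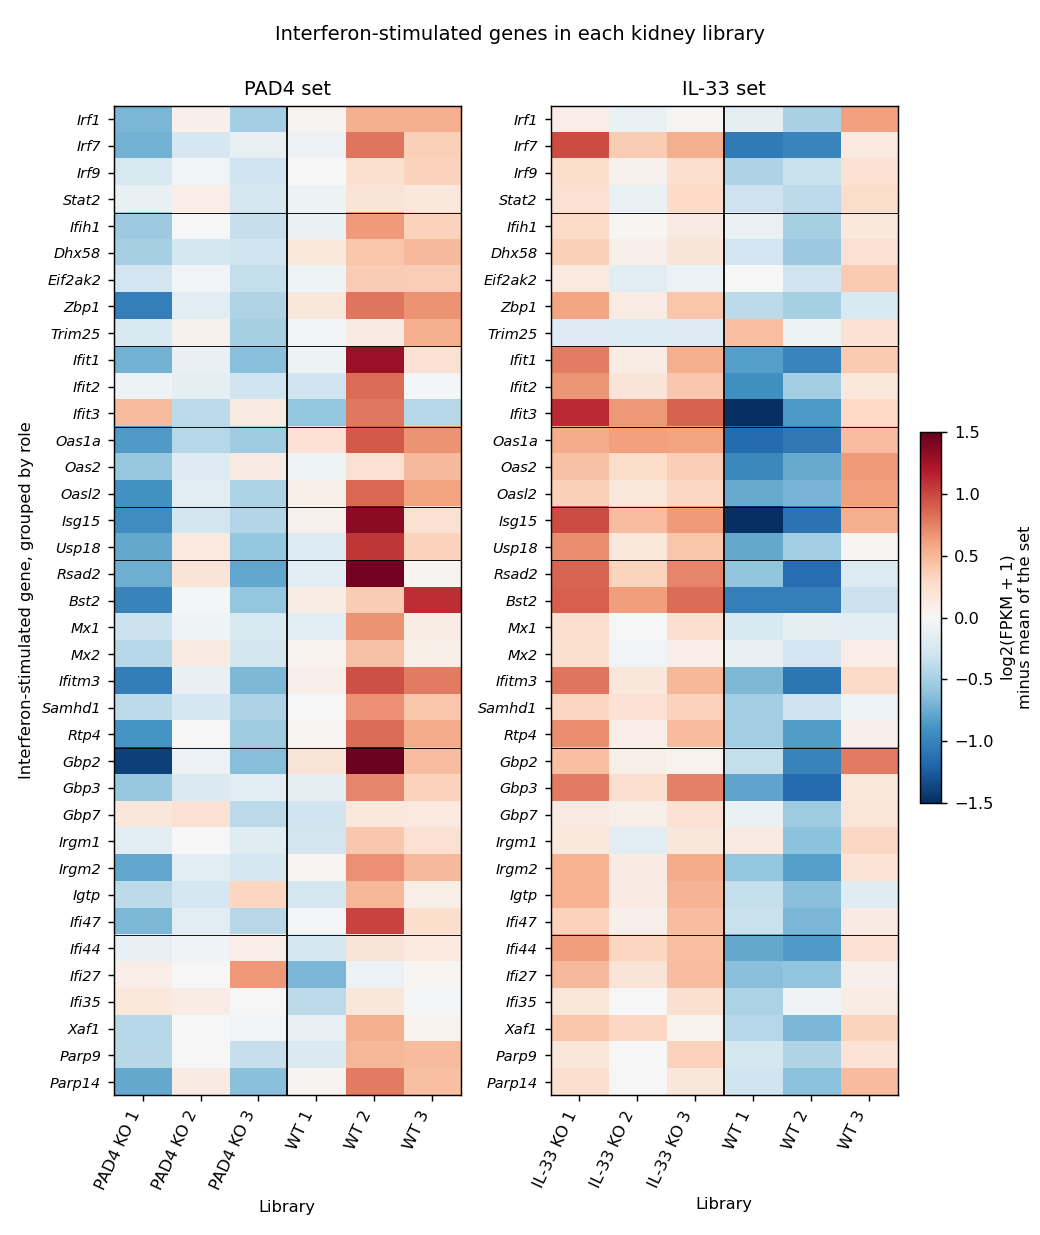
Each row is an interferon-stimulated gene, grouped by role, and each column a library; colour gives log2(FPKM + 1) minus the mean of the 6 libraries of that set. WT replicate 2 of the PAD4 set was highest for 29 of 37 genes, and WT replicate 3 of the IL-33 set stood above WT replicates 1 and 2 for 35 of 37.

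Among the transcription factors of the response, Irf7, which amplifies type I interferon production, was the one called in either comparison. Irf7 stood at 3.78, 5.56 and 6.18 FPKM in PAD4 KO libraries, against 6.35, 12.6 and 9.02 FPKM in WT libraries. The groups did not overlap, but the change did not pass (-0.72 ± 0.28 (SE), adjusted p = 0.0887 by limma). In the other set Irf7 stood at 11.2, 7.07 and 8.00 FPKM in libraries labelled IL-33 KO, against 1.96, 2.10 and 5.86 FPKM in WT libraries. Here all 3 libraries labelled IL-33 KO lay above the WT libraries, and the change passed (1.27 ± 0.33 (SE), adjusted p = 0.0181), although not without IL-33 KO replicate 1 (adjusted p = 0.0652), WT replicate 1 (0.0549) or WT replicate 2 (0.0578).

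Irf9 and Stat2, which encode parts of the complex that binds ISRE letters, passed in neither comparison. Irf9 was at 3.39, 4.03 and 3.20 FPKM in PAD4 KO libraries, against 4.15, 5.14 and 5.58 FPKM in WT libraries (-0.39, adjusted p = 0.285), with no overlap. It was at 5.67, 4.84 and 5.61 FPKM in libraries labelled IL-33 KO, against 3.03, 3.41 and 5.47 FPKM in WT libraries (0.39, adjusted p = 0.133), where WT replicate 3 lay among the knockouts. Stat2 overlapped between groups in both sets: 4.60, 5.50 and 4.06 FPKM in PAD4 KO libraries, against 4.74, 5.90 and 5.74 FPKM in WT libraries (-0.18, adjusted p = 0.683). Stat2 in the IL-33 set was at 5.19, 3.94 and 5.51 FPKM in libraries labelled IL-33 KO, against 3.29, 3.05 and 5.42 FPKM in WT libraries (0.28, adjusted p = 0.301). Irf1, an early target of interferon gamma, was at 3.23, 6.12 and 3.74 FPKM in PAD4 KO libraries, against 6.00, 8.82 and 8.91 FPKM in WT libraries (-0.75, adjusted p = 0.064). It was at 4.54, 3.80 and 4.20 FPKM in libraries labelled IL-33 KO, against 3.67, 2.68 and 6.93 FPKM in WT libraries, and that change was near 0 (0.01, adjusted p = 0.987).

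Of 5 sensors, 2 fell in PAD4 KO libraries and 1 rose in libraries labelled IL-33 KO. Counts by role rest on few genes and stand beside 8.79% of all genes called lower in PAD4 KO and 22.2% called higher in IL-33 KO, so the single sensor that rose is no more than the share of all genes. Zbp1, a sensor of Z-form nucleic acid that can trigger necroptosis, stood at 0.217, 1.20 and 0.801 FPKM in PAD4 KO libraries, against 1.79, 3.30 and 2.94 FPKM in WT libraries. It fell (-1.10 ± 0.24 (SE), adjusted p = 0.0039 by limma), to 0.277 times the WT mean. Zbp1 in the IL-33 set stood at 1.30, 0.645 and 1.04 FPKM in libraries labelled IL-33 KO, against 0.161, 0.0804 and 0.303 FPKM in WT libraries. All libraries labelled IL-33 KO lay above WT (0.75 ± 0.15 (SE), adjusted p = 0.00736), and both sets showed no overlap for this gene. Dhx58 encodes LGP2, a regulator of the RNA sensors RIG-I and MDA5. It stood at 0.722, 1.02 and 0.973 FPKM in PAD4 KO libraries, against 1.71, 2.24 and 2.41 FPKM in WT libraries, and it fell (-0.71 ± 0.20 (SE), adjusted p = 0.0172), but not without PAD4 KO replicate 1 (adjusted p = 0.0893), WT replicate 2 (0.0552) or WT replicate 3 (0.05935). Dhx58 in the IL-33 set stood at 1.46, 1.02 and 1.20 FPKM in libraries labelled IL-33 KO, against 0.573, 0.310 and 1.26 FPKM in WT libraries and did not pass (0.41, adjusted p = 0.147), WT replicate 3 lying among the knockouts. Ifih1 (MDA5, a sensor of long double-stranded RNA), Eif2ak2 (PKR, a kinase that stops translation on double-stranded RNA) and Trim25 (a ubiquitin ligase that acts on RIG-I) passed in neither comparison. Their changes were -0.59, -0.46 and -0.43 in PAD4 KO and 0.29, -0.06 and -0.40 in IL-33 KO. Trim25 was thus the member that stood lower without overlap in libraries labelled IL-33 KO (adjusted p = 0.0527).

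The IFIT proteins bind foreign RNA and limit its translation. Ifit3 was the most abundant of them per length, and its groups overlapped in the PAD4 set, at 22.0, 11.6 and 17.2 FPKM in PAD4 KO libraries, against 10.1, 27.7 and 11.3 FPKM in WT libraries (0.14, adjusted p = 0.844). Ifit3 in the IL-33 set stood at 30.2, 21.7 and 25.6 FPKM in libraries labelled IL-33 KO, against 2.39, 6.92 and 16.8 FPKM in WT libraries. Every library labelled IL-33 KO was above every WT library, and the change was the largest of all members in that comparison in log2(FPKM + 1) (1.77 ± 0.51 (SE), adjusted p = 0.0296). That call did not hold without any one of the 3 IL-33 KO libraries or without WT replicate 2, with adjusted p up to 0.0856. Reads of Ifit3 may be split with its near-identical neighbour Ifit3b, which rose with it (1.44, adjusted p = 0.0192). Ifit1 fell in PAD4 KO (-0.97, adjusted p = 0.0365) and did not pass in IL-33 KO (0.95, adjusted p = 0.0698), and the PAD4 call was lost without PAD4 KO replicate 3 or any one WT library (adjusted p up to 0.264). Ifit2 did not pass in PAD4 KO (-0.34, adjusted p = 0.407) and rose in IL-33 KO (0.85, adjusted p = 0.0385), a call that held only without WT replicate 3.

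Oligoadenylate synthetases make the second messenger that activates RNase L. Oas1a stood at 2.27, 3.39 and 3.10 FPKM in PAD4 KO libraries, against 5.90, 10.2 and 8.42 FPKM in WT libraries. The groups stood apart, and the fall to 0.358 times the WT mean (-1.21 ± 0.26 (SE), adjusted p = 0.00361 by limma) held with each library left out. Oas1a in the IL-33 set stood at 4.14, 4.32 and 4.28 FPKM in libraries labelled IL-33 KO, against 0.561, 0.654 and 3.83 FPKM in WT libraries. WT replicates 1 and 2 were low and WT replicate 3 lay just under the knockouts; the rise passed narrowly (1.18 ± 0.40 (SE), adjusted p = 0.048), and of the 6 fits that left out a library only that without WT replicate 3 called it. Reads may be shared with paralogs such as Oas1g. Oasl2, a family member that ends in ubiquitin-like domains, stood at 1.07, 2.45 and 1.81 FPKM in PAD4 KO libraries, against 3.13, 6.10 and 4.95 FPKM in WT libraries. It fell without overlap (-1.04 ± 0.26 (SE), adjusted p = 0.00912), with adjusted p = 0.0537 when WT replicate 3 was left out. Oasl2 in the IL-33 set stood at 3.04, 2.51 and 2.90 FPKM in libraries labelled IL-33 KO, against 0.863, 0.944 and 3.80 FPKM in WT libraries and did not pass (0.56, adjusted p = 0.231). Oas2 passed in neither, with changes of -0.43 in PAD4 KO and 0.73 in IL-33 KO.

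ISG15 is a ubiquitin-like protein that is attached to other proteins, and USP18 removes it and also dampens the type I interferon receptor. Isg15 fell in PAD4 KO (-1.10 ± 0.33 (SE), adjusted p = 0.0282 by limma), but not without any one of the WT libraries, with adjusted p = 0.227 without WT replicate 2. Its change in IL-33 KO did not pass (1.38 ± 0.48 (SE), adjusted p = 0.0525). Usp18 stood at 0.718, 2.24 and 0.969 FPKM in PAD4 KO libraries, against 1.54, 5.15 and 2.72 FPKM in WT libraries. PAD4 KO replicate 2 was above WT replicate 1, and the change did not pass (-0.80, adjusted p = 0.0635). Usp18 in the IL-33 set stood at 2.78, 1.59 and 2.12 FPKM in libraries labelled IL-33 KO, against 0.365, 0.629 and 1.36 FPKM in WT libraries, with no overlap. It rose (0.85 ± 0.23 (SE), adjusted p = 0.0214), with adjusted p between 0.0547 and 0.0778 without IL-33 KO replicates 1 or 3 or WT replicates 1 or 2.

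The antiviral effectors gave the most calls: 4 of 7 fell in PAD4 KO, and all 5 that could be tested rose in IL-33 KO. Bst2 encodes tetherin, which holds budding virus at the cell surface. It stood at 11.9, 24.7 and 16.4 FPKM in PAD4 KO libraries, against 26.9, 32.6 and 55.1 FPKM in WT libraries. The groups did not overlap, with PAD4 KO replicate 2 close to WT replicate 1, and the fall passed (-1.06 ± 0.34 (SE), adjusted p = 0.0384), but not without PAD4 KO replicates 1 or 3 or WT replicates 1 or 3 (adjusted p up to 0.194). Bst2 in the IL-33 set stood at 32.9, 27.3 and 31.7 FPKM in libraries labelled IL-33 KO, against 7.99, 7.99 and 13.6 FPKM in WT libraries. All 3 libraries labelled IL-33 KO were far above the highest WT library, and the rise had the smallest p of all members (1.58 ± 0.20 (SE), adjusted p = 0.00079).

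Ifitm3, an endosomal protein that blocks viral entry, was the most abundant member per length in both sets. In the PAD4 set it stood at 24.5, 47.6 and 31.8 FPKM in PAD4 KO libraries, against 54.3, 101 and 88.7 FPKM in WT libraries. It fell with no overlap (-1.22 ± 0.35 (SE), adjusted p = 0.0209 by limma), though not without WT replicate 2 (adjusted p = 0.0961) or WT replicate 3 (0.1002). Ifitm3 in the IL-33 set stood at 60.4, 38.8 and 48.9 FPKM in libraries labelled IL-33 KO, against 21.1, 15.6 and 42.2 FPKM in WT libraries. WT replicate 3 lay above IL-33 KO replicate 2, and the rise passed narrowly (0.98 ± 0.33 (SE), adjusted p = 0.0493), holding only without WT replicate 3 among the fits that left out a library. Rsad2 encodes viperin, an enzyme that makes a chain-terminating nucleotide. It stood at 1.43, 3.64 and 1.36 FPKM in PAD4 KO libraries, against 2.60, 10.0 and 3.16 FPKM in WT libraries, with overlap (-0.88, adjusted p = 0.0913). In the IL-33 set it stood at 6.02, 3.85 and 5.42 FPKM in libraries labelled IL-33 KO, against 1.56, 0.742 and 2.34 FPKM in WT libraries, and it rose with no overlap (1.29 ± 0.25 (SE), adjusted p = 0.00554).

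Samhd1, which breaks down deoxynucleotides, stood at 1.44, 1.68 and 1.31 FPKM in PAD4 KO libraries, against 2.19, 4.13 and 3.25 FPKM in WT libraries. It fell with no overlap (-0.73 ± 0.23 (SE), adjusted p = 0.0295 by limma), but not without PAD4 KO replicates 1 or 3 or WT replicates 2 or 3 (adjusted p up to 0.174). Samhd1 in the IL-33 set stood at 3.12, 2.82 and 3.18 FPKM in libraries labelled IL-33 KO, against 1.31, 1.66 and 2.13 FPKM in WT libraries. It rose with no overlap (0.59 ± 0.14 (SE), adjusted p = 0.0131), with adjusted p = 0.0557 and 0.0576 without IL-33 KO replicates 1 and 3. Rtp4, known as an interferon-induced chaperone of receptors, stood at 1.29, 3.29 and 1.93 FPKM in PAD4 KO libraries, against 3.30, 6.63 and 5.23 FPKM in WT libraries. WT replicate 1 and PAD4 KO replicate 2 were nearly level, and the fall passed (-0.94 ± 0.27 (SE), adjusted p = 0.0218), but not without PAD4 KO replicate 1, WT replicate 2 or WT replicate 3 (adjusted p up to 0.0924). Rtp4 in the IL-33 set stood at 5.38, 3.22 and 4.45 FPKM in libraries labelled IL-33 KO, against 1.74, 1.20 and 3.15 FPKM in WT libraries. The lowest knockout library was just above WT replicate 3; the rise passed (0.85 ± 0.25 (SE), adjusted p = 0.0315), but not without IL-33 KO replicates 1 or 3 or WT replicates 1 or 2 (adjusted p up to 0.108). Mx1 and Mx2, of a family of antiviral GTPases, did not pass in PAD4 KO (-0.42, adjusted p = 0.193 and -0.38, adjusted p = 0.199 by limma). In the IL-33 set both were below the level tested, Mx1 at 0.524, 0.284 and 0.524 FPKM in libraries labelled IL-33 KO, against 0.0911, 0.167 and 0.150 FPKM in WT libraries.

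**Figure D2:**
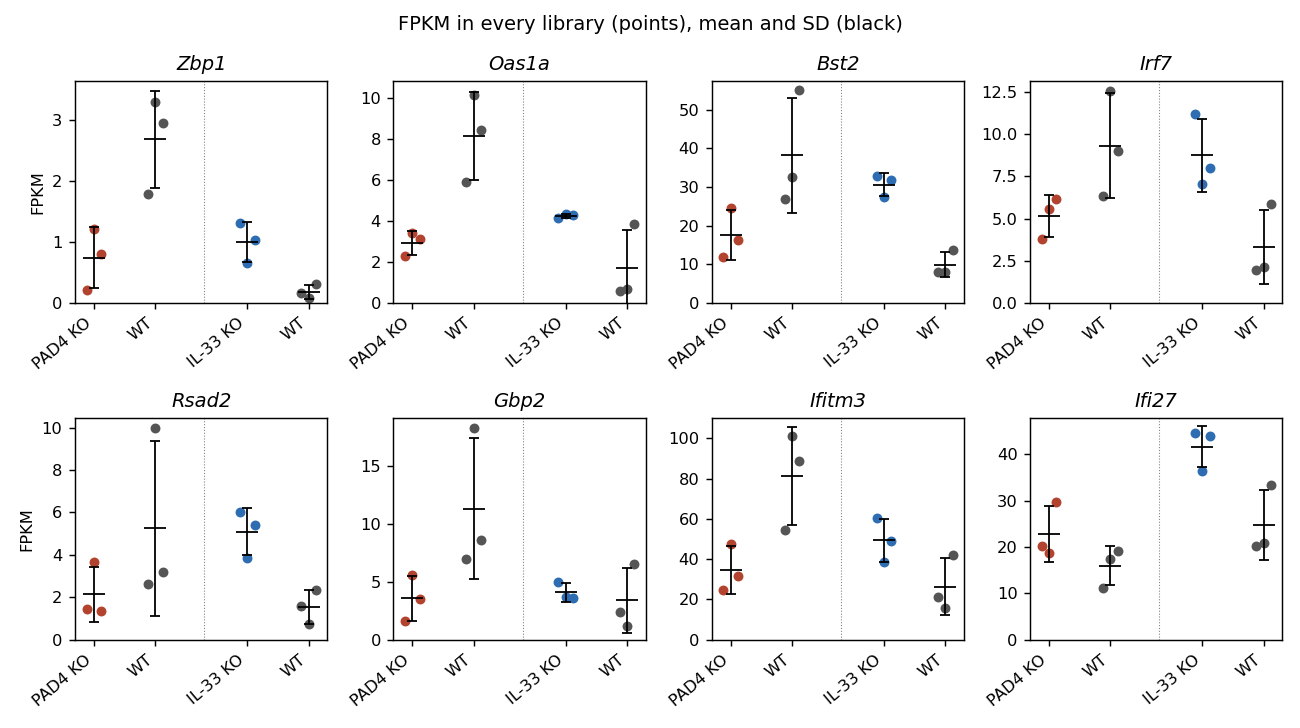
FPKM of 8 interferon-stimulated genes in each of the 12 libraries (points), with the mean and SD of each group of 3 (black; an SD bar that would pass below 0 is cut at 0). Zbp1, Oas1a, Bst2 and Ifitm3 were called lower in PAD4 KO and higher in IL-33 KO, Irf7, Rsad2 and Ifi27 were called in IL-33 KO and Gbp2 in PAD4 KO.

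Among the interferon-inducible GTPases, which act on vacuoles that hold pathogens, 3 of 7 fell in PAD4 KO and 3 of 7 rose in IL-33 KO. Gbp2 stood at 1.64, 5.56 and 3.50 FPKM in PAD4 KO libraries, against 6.99, 18.3 and 8.66 FPKM in WT libraries. It had the largest fall of all members in log2(FPKM + 1) (-1.42 ± 0.35 (SE), adjusted p = 0.00827 by limma) with no overlap, to 0.315 times the WT mean; by the ratio of means Zbp1 fell further. Gbp2 in the IL-33 set stood at 5.01, 3.69 and 3.56 FPKM in libraries labelled IL-33 KO, against 2.43, 1.20 and 6.53 FPKM in WT libraries, and WT replicate 3 was the highest of the 6 libraries (0.39, adjusted p = 0.467). Irgm2, an immunity-related GTPase, stood at 0.910, 1.92 and 1.77 FPKM in PAD4 KO libraries, against 2.36, 4.27 and 3.59 FPKM in WT libraries. It fell with no overlap (-0.80 ± 0.24 (SE), adjusted p = 0.0267), but not without PAD4 KO replicate 1, WT replicate 2 or WT replicate 3 (adjusted p up to 0.153). Irgm2 in the IL-33 set stood at 6.63, 4.77 and 6.79 FPKM in libraries labelled IL-33 KO, against 2.56, 1.98 and 5.13 FPKM in WT libraries. WT replicate 3 lay above IL-33 KO replicate 2, and the rise passed narrowly (0.80 ± 0.27 (SE), adjusted p = 0.0463), holding only without WT replicate 3 among the fits that left out a library.

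Igtp (Irgm3), which overlaps Irgm2 on the same strand so that reads may be shared, stood at 3.34, 3.76 and 6.12 FPKM in PAD4 KO libraries, against 3.77, 7.04 and 5.04 FPKM in WT libraries and overlapped (-0.22, adjusted p = 0.647). Igtp in the IL-33 set stood at 7.57, 5.46 and 7.51 FPKM in libraries labelled IL-33 KO, against 3.66, 2.84 and 4.27 FPKM in WT libraries. It rose with no overlap (0.77 ± 0.17 (SE), adjusted p = 0.00867 by limma). Ifi47 fell in PAD4 KO (-0.84, adjusted p = 0.0326), but not without PAD4 KO replicates 1 or 3 or WT replicates 2 or 3 (adjusted p up to 0.229), and Gbp3 rose in IL-33 KO (1.19, adjusted p = 0.0226), but not without IL-33 KO replicates 1 or 3 or WT replicates 1 or 2 (adjusted p up to 0.0752). Their other changes did not pass: 0.60 for Ifi47 in IL-33 KO and -0.63 for Gbp3 in PAD4 KO. Gbp7 and Irgm1 passed in neither, with changes of -0.01 and -0.23 in PAD4 KO and 0.30 and 0.11 in IL-33 KO.

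The remaining 6 genes had the smallest median change of any role in PAD4 KO, at -0.19. Ifi27, a mitochondrial protein whose human relative is a blood marker of type I interferon, stood at 20.1, 18.7 and 29.8 FPKM in PAD4 KO libraries, against 11.2, 17.4 and 19.1 FPKM in WT libraries. It was 1 of 3 members, with Ifit3 and Ifi35, whose change in PAD4 KO was above 0, and it did not pass (0.50, adjusted p = 0.298). Ifi27 in the IL-33 set stood at 44.6, 36.5 and 43.8 FPKM in libraries labelled IL-33 KO, against 20.1, 20.7 and 33.4 FPKM in WT libraries. It rose with no overlap (0.76 ± 0.19 (SE), adjusted p = 0.0176 by limma), but not without IL-33 KO replicates 1 or 3 or WT replicates 1 or 2 (adjusted p up to 0.0623). Parp14, an ADP-ribosyltransferase, fell in PAD4 KO (-0.84, adjusted p = 0.0314), although its groups overlapped, and that call held only without PAD4 KO replicate 2. Ifi44 rose in IL-33 KO (0.93, adjusted p = 0.0321), a call that held only without WT replicate 3. Ifi35, Xaf1 and Parp9 passed in neither comparison, with changes of 0.17, -0.32 and -0.51 in PAD4 KO and 0.28, 0.52 and 0.35 in IL-33 KO.

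The changes in both knockouts differed for many of these genes. Each knockout stood in a set of its own, so knockout and set cannot be told apart in this difference. The difference, the IL-33 KO change minus the PAD4 KO change, was tested by limma over all 12 libraries for the 35 members and 13010 genes tested in both sets. It was above 0 and passed for 16 of 35 members and passed below 0 for 0 (27 and 0 at an unadjusted p under 0.05), against 6.18% of all genes called above 0 and 6.23% called below. The median difference was 1.19 for the members, beside -0.02 for all genes. It was largest for Bst2 (2.64 ± 0.41 (SE), adjusted p = 0.00126), Isg15 (2.48 ± 0.61 (SE), adjusted p = 0.0162) and Oas1a (2.39 ± 0.47 (SE), adjusted p = 0.00449), and Zbp1 (1.84 ± 0.31 (SE), adjusted p = 0.00175) and Samhd1 (1.33 ± 0.25 (SE), adjusted p = 0.00328) had small p-values as well. Of the 16 calls, 13 held with each of the 12 libraries left out in turn in every fit that kept the gene. Ifit1, Oasl2 and Usp18 did not hold in all, with adjusted p up to 0.0646, 0.0705 and 0.0578.

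By sign, 30 of 35 genes were lower in PAD4 KO and higher in IL-33 KO than in their own WT libraries. Zbp1, Oas1a, Bst2, Ifitm3, Samhd1, Rtp4 and Irgm2 passed in both comparisons, in opposite directions. Another 9 passed in IL-33 KO alone and 7 in PAD4 KO alone. How often all genes show such joint signs or calls was not counted, so these counts have no share to stand beside. The difference itself was not called for 5 of those 9 (Ifit2, Ifit3, Igtp, Ifi44 and Ifi27) or for Gbp2 and Parp14 among the 7, so those genes are not shown to differ between the knockouts. Eif2ak2 and Trim25 were below 0 in both, and Ifit3, Ifi27 and Ifi35 above 0 in both. Where the promoter held ISRE letters, 7 of 16 genes fell in PAD4 KO and 8 of 16 rose in IL-33 KO, and where it did not, 3 of 11 and 4 of 11 did so. Of all genes tested, 8.79% were called lower in PAD4 KO and 22.2% higher in IL-33 KO. These counts are small, and a link between the letters and the calls was not tested.

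**Figure D3:**
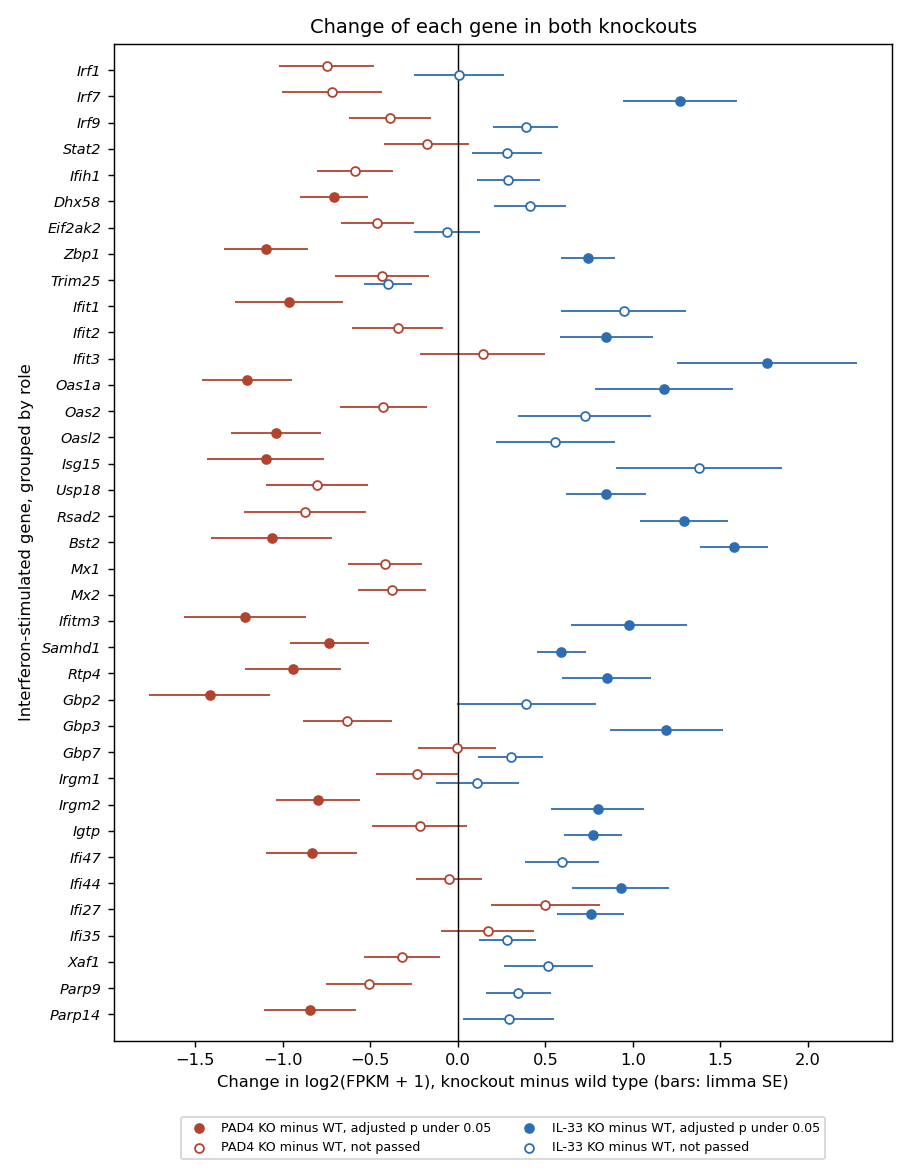
Change in log2(FPKM + 1), knockout minus WT of the same set, for each gene, with limma SE as bars; filled points passed an adjusted p under 0.05. PAD4 KO points lie below 0 for 34 of 37 genes, and IL-33 KO points above 0 for 33 of 35.

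The interferon genes analysed, Ifnb1, Ifng and Ifne in the PAD4 set and Ifng in the IL-33 set, were below the level tested. Of 10 looked for, Ifnb1 was listed at 0 in 5 of 6 libraries of the PAD4 set and at 0.0549 FPKM in WT replicate 3, Ifng was at 0.0750 FPKM or less in the PAD4 set and listed at 0 in all 6 libraries of the IL-33 set, and Ifne reached 0.696 FPKM in the PAD4 set; the other 7 were not analysed here. Of 10 receptor and JAK-STAT genes, 3 fell and 0 rose in PAD4 KO by limma (4 and 0 at an unadjusted p under 0.05). In IL-33 KO, 4 fell and 0 rose (4 and 0 at an unadjusted p under 0.05). Among all genes tested, 8.79% were called lower and 8.89% higher in PAD4 KO, and 16.8% and 22.2% in IL-33 KO. Counts out of 10 genes are small beside such shares. Ifnlr1, which encodes a chain of the type III interferon receptor, stood at 0.740, 1.19 and 0.961 FPKM in libraries labelled IL-33 KO, against 2.75, 1.60 and 1.90 FPKM in WT libraries and fell without overlap (-0.64, adjusted p = 0.0196), but not without IL-33 KO replicate 1 (adjusted p = 0.0801) or replicate 3 (0.0640). Ifngr1 and Ifngr2, the chains of the interferon gamma receptor, and Stat3, which carries signals of interleukin-6 and related cytokines, were lower in both. Ifngr2 stood at 1.89, 5.18 and 2.21 FPKM in PAD4 KO libraries, against 6.88, 8.45 and 9.39 FPKM in WT libraries (-1.25 ± 0.29 (SE), adjusted p = 0.00569 by limma). In the IL-33 set it stood at 4.66, 4.67 and 4.80 FPKM in libraries labelled IL-33 KO, against 13.3, 8.44 and 12.8 FPKM in WT libraries (-1.11 ± 0.16 (SE), adjusted p = 0.00171). Stat3 changed by -1.11, adjusted p = 0.0117 in PAD4 KO and by -1.59, adjusted p = 6.6e-05 in IL-33 KO, and Ifngr1 by -0.94, adjusted p = 0.0287 and -0.69, adjusted p = 0.00285. The PAD4 call of Stat3 was lost without PAD4 KO replicate 3, WT replicate 1 or WT replicate 3 (adjusted p up to 0.0779), and that of Ifngr1 without PAD4 KO replicate 3, WT replicate 2 or WT replicate 3 (adjusted p up to 0.125). The type I receptor chains Ifnar1 and Ifnar2 passed in neither, with changes of -0.07 and -0.18 in PAD4 KO and -0.17 and 0.01 in IL-33 KO.

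Among 10 negative regulators, Socs3, the feedback inhibitor of STAT3 signalling, was lower in both knockouts. It stood at 2.07, 13.3 and 1.68 FPKM in PAD4 KO libraries, against 15.6, 19.9 and 12.8 FPKM in WT libraries, with PAD4 KO replicate 2 within the WT range (-1.78, adjusted p = 0.00912, but 0.115 without WT replicate 1 and 0.05506 without WT replicate 3). Socs3 in the IL-33 set stood at 1.40, 1.39 and 0.885 FPKM in libraries labelled IL-33 KO, against 17.9, 6.77 and 26.0 FPKM in WT libraries (-2.84 ± 0.41 (SE), adjusted p = 0.00145 by limma), every knockout library lying below every WT library. Rnaseh2c, a subunit of the RNase that removes RNA from DNA hybrids, rose in PAD4 KO (0.90, adjusted p = 0.0406), a call that held only without PAD4 KO replicate 2. The phosphatase gene Ptpn6 (SHP-1) rose in IL-33 KO (0.78, adjusted p = 0.0095), and Ptpn2, another phosphatase of JAK-STAT signalling, fell (-0.58, adjusted p = 0.0123, but 0.0541 without IL-33 KO replicate 1). Of 13 sensors and adaptors tested in the PAD4 set 2 fell and 0 rose by limma (3 and 0 at an unadjusted p under 0.05), and of 12 tested in the IL-33 set 3 fell and 1 rose, beside 8.79% of all genes lower in PAD4 KO and 16.8% lower and 22.2% higher in IL-33 KO. Sting1, the adaptor of cytosolic DNA sensing, was lower in both, at 1.30, 4.23 and 1.45 FPKM in PAD4 KO libraries, against 5.87, 5.98 and 6.97 FPKM in WT libraries (-1.23, adjusted p = 0.00598, but 0.0576 without WT replicate 1). Sting1 in the IL-33 set stood at 1.28, 1.18 and 1.58 FPKM in libraries labelled IL-33 KO, against 3.37, 2.98 and 6.30 FPKM in WT libraries (-1.10 ± 0.23 (SE), adjusted p = 0.00738), with no overlap. Tlr4, the receptor for bacterial lipopolysaccharide, fell in PAD4 KO (-0.54, adjusted p = 0.0313, but 0.137 and 0.0968 without PAD4 KO replicates 1 and 3). The Toll-like receptor adaptors Myd88 (-0.85, adjusted p = 0.00214) and Ticam1 (-0.48, adjusted p = 0.0103) fell in IL-33 KO, and the transcription factor Irf5 rose (0.68, adjusted p = 0.0123, but 0.05147 and 0.05165 without IL-33 KO replicates 1 and 3).

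A list of 40 other interferon-stimulated genes was counted in the same way. In PAD4 KO 7 of 36 tested fell and 1 rose (8.79% and 8.89% of all genes), with a median change of -0.58. In IL-33 KO 14 of 33 rose and 2 fell (22.2% and 16.8% of all genes), with a median of 0.42. The difference between the knockout changes passed above 0 for 13 of 33 and below 0 for 1. Ifitm1, a relative of Ifitm3, stood at 2.90, 6.25 and 2.36 FPKM in PAD4 KO libraries, against 7.08, 9.30 and 12.3 FPKM in WT libraries and fell (-1.18 ± 0.30 (SE), adjusted p = 0.0108 by limma), but not without PAD4 KO replicate 3 (adjusted p = 0.0525) or WT replicate 3 (0.0798). Ifitm1 in the IL-33 set stood at 12.0, 9.36 and 9.71 FPKM in libraries labelled IL-33 KO, against 2.70, 1.99 and 3.67 FPKM in WT libraries, and every library labelled IL-33 KO was above every WT library (1.60 ± 0.18 (SE), adjusted p = 0.00051). Ifit1bl1, Ifi204 (a DNA sensor of the PYHIN family), Oasl1 and Iigp1 (an immunity-related GTPase) had the smallest p-values among those that fell in PAD4 KO, at -1.62, adjusted p = 0.0044 for Ifit1bl1, -1.14, adjusted p = 0.00767 for Ifi204, -1.09, adjusted p = 0.00989 for Oasl1 and -0.90, adjusted p = 0.0104 for Iigp1. The calls of Ifit1bl1 (0.0567 without WT replicate 3), Oasl1 (0.0562 without WT replicate 1) and Iigp1 (0.0682 without PAD4 KO replicate 1) each failed in a single left-out fit. In IL-33 KO, Ifi203 (1.17, adjusted p = 0.00259), Phf11d (0.99, adjusted p = 0.00316) and Cmpk2 (1.43, adjusted p = 0.0033), a mitochondrial nucleotide kinase next to Rsad2, rose. The member that went the other way, named after its values were seen, was the ADP-ribosyltransferase gene Parp10, which rose in PAD4 KO (0.87, adjusted p = 0.0414) and fell in IL-33 KO (-0.57, adjusted p = 0.00379); Ly6e also fell in IL-33 KO (-0.50, adjusted p = 0.031).

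Some marker lists of other cells and tissues changed in the same direction as these genes and others did not. In PAD4 KO, 5 of 9 macrophage and monocyte markers tested fell and 0 rose by limma (6 and 1 at an unadjusted p under 0.05). The shares called lower and higher among all genes were 8.79% and 8.89% in PAD4 KO, and 16.8% and 22.2% in IL-33 KO. The summed level of the 10 markers was 34.9, 74.5 and 49.5 FPKM in PAD4 KO libraries, against 82.4, 158 and 155 FPKM in WT libraries. Lyz2, also a gene of some epithelia, made up the largest part of each of these WT sums. Changes of the markers ranged from -2.06 for Lyz2 to 0.88 for Csf1r, which did not pass. In IL-33 KO, 6 of 8 rose and 1, Cd68, fell, with sums of 80.9, 87.1 and 84.3 FPKM in libraries labelled IL-33 KO, against 33.1, 23.3 and 42.1 FPKM in WT libraries. None of these markers was at 0, and the defining gene Adgre1 (F4/80) stood at 0.304, 0.595 and 0.489 FPKM in PAD4 KO libraries, against 0.771, 1.30 and 1.65 FPKM in WT libraries. Adgre1 in the IL-33 set stood at 1.40, 1.69 and 1.44 FPKM in libraries labelled IL-33 KO, against 0.163, 0.118 and 0.198 FPKM in WT libraries. Their part in the changes of the interferon-stimulated genes was not tested. Neutrophil markers fell for 4 of 8 in PAD4 KO (sums of 12.0, 62.7 and 9.93 FPKM in PAD4 KO libraries, against 53.3, 175 and 53.1 FPKM in WT libraries). The sum of PAD4 KO replicate 2 lay above those of WT replicates 1 and 3. In IL-33 KO they fell by limma for 0 of 4 (0 at an unadjusted p under 0.05, with sums of 5.13, 7.66 and 6.35 FPKM in libraries labelled IL-33 KO, against 7.69, 3.04 and 7.09 FPKM in WT libraries).

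Genes of colon and intestine, a tissue outside the kidney, fell for 14 of 14 in PAD4 KO, with sums of 117, 219 and 135 FPKM in PAD4 KO libraries, against 390.5, 566 and 618 FPKM in WT libraries. The shares of all genes called lower and higher were 8.79% and 8.89% in PAD4 KO, and 16.8% and 22.2% in IL-33 KO. Lung genes other than Napsa summed to 61.2, 207 and 42.5 FPKM in PAD4 KO libraries, against 295, 842 and 496 FPKM in WT libraries, and the smooth muscle list fell for 7 of 8. The same lung genes in the IL-33 set, of which 4 were listed, summed to 0.427, 0.683 and 0.584 FPKM in libraries labelled IL-33 KO, against 4.04, 2.11 and 1.33 FPKM in WT libraries. Napsa itself rose in both (1.28, adjusted p = 0.0453 in PAD4 KO and 0.88, adjusted p = 0.0113 in IL-33 KO, by limma). By limma, 0 of 5 smooth muscle genes tested passed in IL-33 KO (1 at an unadjusted p under 0.05), and 0 of 8 endothelial genes passed in either comparison (1 in PAD4 KO and 1 in IL-33 KO at an unadjusted p under 0.05). Both tissue lists were present in every library of the PAD4 set. In the IL-33 set 9 of the 14 intestinal genes were listed and only Lgals4 reached the level tested. Their sums were 3.50, 4.46 and 4.14 FPKM in libraries labelled IL-33 KO, against 19.0, 39.5 and 20.9 FPKM in WT libraries, and Tff3 was listed at 0 in all 6 libraries. Of the 10 kidney markers, 5 rose and 0 fell in PAD4 KO by limma (6 and 0 at an unadjusted p under 0.05), with mean log2(FPKM + 1) of 6.64, 5.37 and 6.18 in PAD4 KO libraries, against 4.42, 4.99 and 5.03 in WT libraries. In IL-33 KO 6 rose and 1 fell, with means of 8.17, 8.15 and 8.11 in libraries labelled IL-33 KO, against 6.89, 7.35 and 6.96 in WT libraries. The 5 plasmacytoid dendritic cell genes summed to 1.87, 6.73 and 2.41 FPKM in PAD4 KO libraries, against 3.09, 6.68 and 6.36 FPKM in WT libraries, most of it from Cox6a2, which did not pass (-0.52, adjusted p = 0.313). The defining gene Siglech was at 0.113 FPKM or less in all 12 libraries, and none of the 5 reached the level tested in the IL-33 set. With the mean log2 level of the colon, intestine and lung markers as a covariate, limma called 0 members in either comparison (at an unadjusted p under 0.05, 0 in PAD4 KO and 3 in IL-33 KO), and the median change of the members turned to 0.27 in PAD4 KO and to -0.38 in IL-33 KO. Without Napsa in the covariate, limma again called 0 members (0 in PAD4 KO and 15 in IL-33 KO at an unadjusted p under 0.05), and the medians were 0.25 and -1.70. The covariate did not overlap between the groups in either set, and the SE of the members rose with it, to a median of 0.597 in place of 0.259 in the PAD4 set and of 0.513 in place of 0.250 in the IL-33 set. Knockout and marker level therefore cannot be told apart in these libraries, and the part of any of these cell types or tissues in the changes was not tested further.

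**Figure D4:**
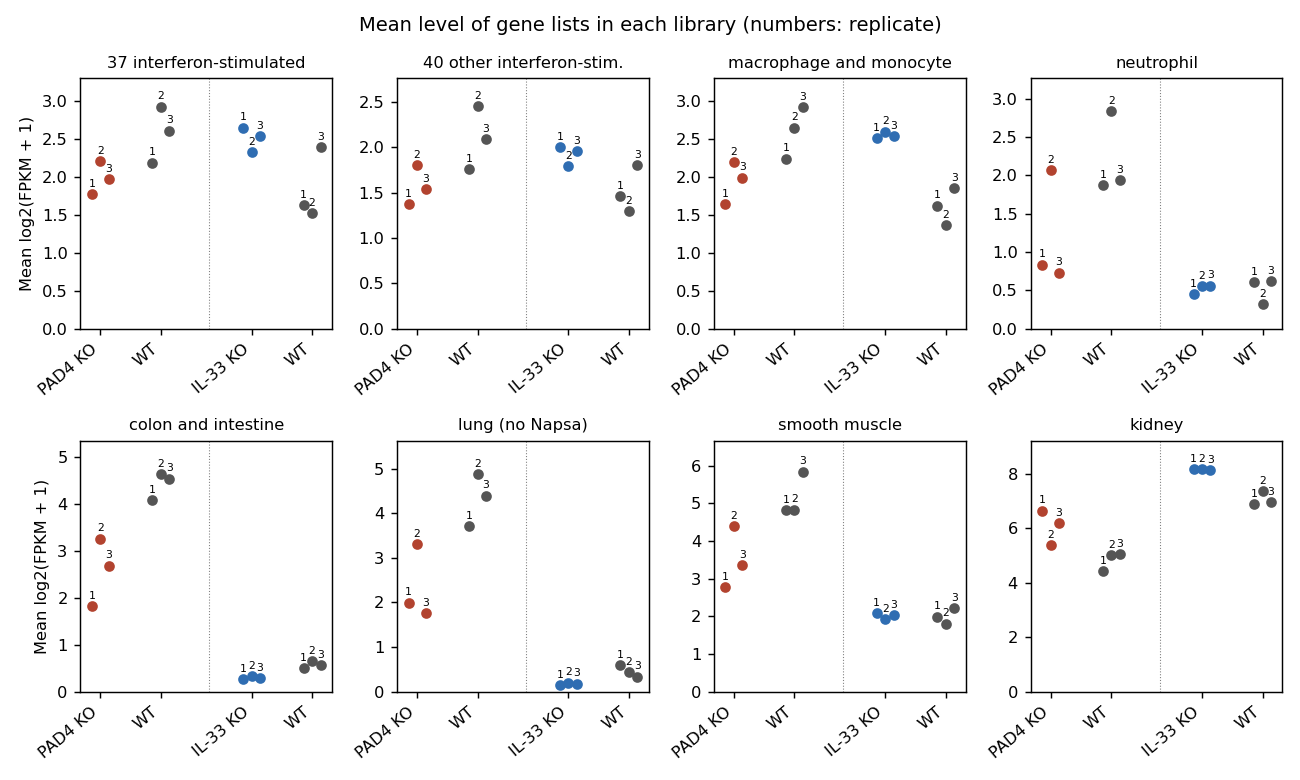
Mean log2(FPKM + 1) of each gene list in each library, with the replicate number above each point; knockout libraries stand left of the WT libraries of their set. On average the 37 interferon-stimulated genes and the macrophage list stand lower in PAD4 KO and higher in IL-33 KO than in WT of the same set, and the colon list and the lung list without Napsa stand lower and the kidney list higher in both knockouts.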

How the data were processed

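Poly(A)-selected, strand-specific RNA-seq libraries of 12 mouse kidneys were sequenced on a NovaSeq instrument, per the labels' protocols. The authors deposited FPKM values in a table for each set, per the file headers. Per the submitters' processing notes, the tools were HISAT2, StringTie, cutadapt, FastQC, edgeR and DESeq2 (no version). The genome build, annotation and strand setting of the counting were not given in the sources used here. Ensembl identifiers were matched to symbols with GENCODE vM21 (30212 of 32199 and 29690 of 31719 identifiers). In the second table the WT columns carry a number and no genotype and were assigned because no other group of that set has such a name; 0 columns belonged to no sample.

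Each set of 3 against 3 libraries was fitted by itself in limma 3.58.1 (R 4.3.3; moderated statistics with a trend on the mean) after taking log2(FPKM + 1). Genes whose FPKM averaged 0.5 or more entered, 13986 and 14513 in number. The p-values are limma's, two-sided, adjusted by Benjamini-Hochberg across every gene in the fit, with a threshold of 0.05. Changes are knockout minus WT in log2(FPKM + 1), so those of low genes are understated. The difference between the knockout changes is a contrast of 4 group means over 13010 genes. An exact permutation test of 3 against 3 cannot go below p = 0.1. Whole-read steps were looked for in the ratios of low values and not found (1.59% to 2.78% of low genes in the fullest bin), so the depth is unknown. The fit was also run on simulated data with noise drawn independently for each gene. Genes did not shift together by library there, so that run cannot speak to counts over genes that vary together.

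The 37 genes, the pathway and marker lists and the tests were chosen with earlier results of these data known. Values of every library are given for the 8 members with the smallest p in each comparison, 6 of the difference, the 4 with the highest mean in each table and 4 transcription factors, and for up to 4 genes of each pathway list some values are given. A gene of the receptor and JAK-STAT list is not reported here and is left out of that list's counts. The planned marker covariate and the counts of lung genes include Napsa, which kidney also expresses; the summed and plotted lung levels and a second covariate leave it out, which was decided after seeing the data. Reads may be shared with paralogs (Ifit3b, Oas1g, Ifitm2, other Gbp genes) and with overlapping genes (Irf9 with Rnf31, Ifi47 with Olfr56, Irf7 with Phrf1, Parp9 with Dtx3l, Rtp4 with Masp1). Alternatives tried were other pseudocounts, filters, scalings, eBayes with no trend, array weights, a replicate block, a marker covariate and each library left out.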

Additional observations from a re-analysis of the deposited data

Results flagged for a closer look

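For 16 members the change differed between the knockouts by the limma contrast of IL-33 KO minus PAD4 KO changes over 12 libraries. Knockout and set cannot be told apart in that contrast, since each knockout stood in a set of its own. The differences, in log2(FPKM + 1) with Benjamini-Hochberg adjusted p, were 2.64, adjusted p = 0.00126 for Bst2, 2.48, adjusted p = 0.0162 for Isg15, 2.39, adjusted p = 0.00449 for Oas1a, 2.19, adjusted p = 0.00922 for Ifitm3, 2.17, adjusted p = 0.0154 for Rsad2 and 1.99, adjusted p = 0.00848 for Irf7. They were 1.91, adjusted p = 0.0259 for Ifit1, 1.84, adjusted p = 0.00175 for Zbp1, 1.82, adjusted p = 0.0107 for Gbp3, 1.79, adjusted p = 0.00873 for Rtp4 and 1.65, adjusted p = 0.022 for Usp18. The other differences were 1.60, adjusted p = 0.011 for Irgm2, 1.59, adjusted p = 0.0284 for Oasl2, 1.43, adjusted p = 0.0171 for Ifi47, 1.33, adjusted p = 0.00328 for Samhd1 and 1.12, adjusted p = 0.0114 for Dhx58. All 16 were below 0 in PAD4 KO and above 0 in IL-33 KO. Choosing genes by a large difference favours opposite signs, so the signs are no separate result. Macrophage and monocyte markers differed in the same direction for 6 of 8 tested and smooth muscle genes for 3 of 5, against 6.18% of all genes. Neutrophil markers passed for 0 of 4 by limma (3 above 0 at an unadjusted p under 0.05) and endothelial genes for 0 of 8. Of 10 kidney markers, 1 passed above 0 and 2 below (6.18% and 6.23% of all genes). The part of these cell types in the result was not tested.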

How the results depend on the processing

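The medians of the members kept their sign under every alternative run except the marker covariate, and FPKM without depth give no counting error. Leaving out 1 library gave 3 to 18 members lower in PAD4 KO, 3 to 28 higher and 0 to 1 lower in IL-33 KO, and 12 to 27 for the difference. Over all genes it gave 515 to 1764 lower and 352 to 1770 higher in PAD4 KO, 1554 to 2662 lower and 2072 to 3903 higher in IL-33 KO, and 522 to 1032 below and 533 to 1143 above 0 for the difference. Medians of the members were -0.81 to -0.42, 0.58 to 0.88 and 1.06 to 1.48.

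With no filter, 0 members and 0 genes passed in PAD4 KO in limma (19 members, 3083 lower and 2970 higher genes at an unadjusted p under 0.05), 6 members rose in IL-33 KO, and the difference called 10 members and 1369 genes above 0. With a mean FPKM of at least 2, 762 genes fell in PAD4 KO, 1 member fell in IL-33 KO and the difference called 375 genes above 0. Quantile normalization gave 1916 genes higher in PAD4 KO, 1 member lower in IL-33 KO and 1750 genes below and 1385 above 0 for the difference. Median-of-ratios scaling gave 1 member lower in IL-33 KO and 1678 and 1363 for the difference. Array weights gave 28 members lower and 2939 lower and 2267 higher genes in PAD4 KO, 1 member lower in IL-33 KO, and 28 members above 0 with 1488 genes below and 2037 above for the difference. A pseudocount of 0.1 gave a median difference of 1.85. The cause of these shifts was not tested.

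Whether equal replicate numbers pair the libraries was not settled. Deviations of libraries with the same number correlated at -0.016, -0.113 and -0.146 across genes in the PAD4 set and at -0.014, 0.134 and -0.0017 in the IL-33 set. Those of libraries with unlike numbers correlated at -0.129 to 0.232 in the PAD4 set and at -0.125 to 0.130 in the IL-33 set. With the number as a replicate block, 8 members were lower in PAD4 KO, 19 higher in IL-33 KO and 25 above 0 for the difference. Over all genes the same fits called 1033 lower in PAD4 KO, 3065 higher in IL-33 KO and 941 above 0 for the difference.

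With the marker covariate, 0 members passed in either comparison in limma (0 at an unadjusted p under 0.05 in PAD4 KO and 3, all lower, in IL-33 KO), the medians were 0.27 and -0.38, and 12 genes fell and 49 rose in PAD4 KO and 300 fell and 365 rose in IL-33 KO. Below and above 0 stood 4 and 33 members in PAD4 KO and 24 and 11 in IL-33 KO. Among the named genes that had passed without the covariate, the changes that turned round in PAD4 KO were 0.13 for Zbp1, 0.42 for Ifit1, 0.17 for Oasl2, 0.19 for Isg15, 0.26 for Bst2, 0.31 for Ifitm3, 0.49 for Rtp4, 0.55 for Gbp2, 0.17 for Irgm2, 0.24 for Ifi47, 0.57 for Parp14, 0.14 for Ifngr2, 0.84 for Socs3, 0.11 for Sting1, 0.33 for Ifit1bl1, 0.22 for Ifi204, 0.41 for Oasl1, 0.023 for Iigp1 and 0.17 for Ifitm1. In IL-33 KO they were -0.19 for Rsad2, -0.75 for Ifitm3, -0.50 for Rtp4, -0.38 for Gbp3, -0.41 for Irgm2, -0.091 for Igtp, -0.076 for Ifi44, -0.52 for Ifi204 and -0.045 for Irf5. With the covariate computed without Napsa, chosen after seeing the data, 0 members passed again (0 and 15 at an unadjusted p under 0.05), the medians were 0.25 and -1.70, and 13 genes fell and 48 rose in PAD4 KO, whereas 0 fell and 0 rose in IL-33 KO (1490 and 828 at an unadjusted p under 0.05), with the members' median SE at 0.587 and 0.632. Below and above 0 then stood 4 and 33 members in PAD4 KO and 35 and 0 in IL-33 KO. Among the same named genes the changes turned to 0.096 for Zbp1, 0.38 for Ifit1, 0.13 for Oasl2, 0.16 for Isg15, 0.21 for Bst2, 0.26 for Ifitm3, 0.45 for Rtp4, 0.51 for Gbp2, 0.14 for Irgm2, 0.20 for Ifi47, 0.53 for Parp14, 0.11 for Ifngr2, 0.83 for Socs3, 0.096 for Sting1, 0.28 for Ifit1bl1, 0.19 for Ifi204, 0.39 for Oasl1, 0.0036 for Iigp1 and 0.13 for Ifitm1 in PAD4 KO. In IL-33 KO they turned to -2.03 for Irf7, -0.49 for Zbp1, -1.23 for Ifit2, -1.41 for Ifit3, -2.16 for Oas1a, -1.04 for Usp18, -1.49 for Rsad2, -0.32 for Bst2, -2.88 for Ifitm3, -0.074 for Samhd1, -1.96 for Rtp4, -2.40 for Gbp3, -2.03 for Irgm2, -0.77 for Igtp, -1.85 for Ifi44, -1.08 for Ifi27, -1.64 for Ifi204, -0.76 for Irf5, -0.25 for Ifitm1, -0.75 for Ifi203, -0.35 for Phf11d and -0.66 for Cmpk2. The covariate did not overlap between knockout and WT libraries, so it cannot be told apart from genotype.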

Other observations

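Of 10 T and NK cell markers only Cd8a reached the level tested in the IL-33 set. Cd8a stood at 1.05, 0.873 and 1.15 FPKM in libraries labelled IL-33 KO, against 0.0568, 0.107 and 0.0711 FPKM in WT libraries, and it rose (0.91 ± 0.11 (SE), adjusted p = 0.000672 by limma) with no overlap, while Cd3e was at 0.0987 FPKM or less in those 6 libraries. Lyz2, a lysozyme of myeloid cells and of some epithelia, stood at 10.3, 37.3 and 14.5 FPKM in PAD4 KO libraries, against 46.4, 114 and 89.5 FPKM in WT libraries (-2.06, adjusted p = 0.00253 by limma). In the IL-33 set it stood at 18.5, 20.5 and 16.3 FPKM in libraries labelled IL-33 KO, against 2.61, 2.16 and 5.82 FPKM in WT libraries (2.18, adjusted p = 0.000786). Csf1r, the receptor that macrophages need to survive, did not follow Lyz2 in the PAD4 set: it stood at 9.77, 3.57 and 9.07 FPKM in PAD4 KO libraries, against 2.24, 3.79 and 4.13 FPKM in WT libraries and did not pass (0.88, adjusted p = 0.057). In the IL-33 set Csf1r stood at 11.7, 12.7 and 12.1 FPKM in libraries labelled IL-33 KO, against 1.63, 2.74 and 3.82 FPKM in WT libraries and rose (1.86, adjusted p = 0.00049). These genes were named after their values were seen.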
